A study of Mus musculus with 18 samples.

Results

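H3K27ac peaks that were called in WT mouse embryonic fibroblasts (MEF) but shared no base with any peak of Kap1 KO MEF were collected on chromosomes 4 and 10. There were 1328 of these WT-only peaks, 638 on chromosome 4 and 690 on chromosome 10, out of 36275 WT H3K27ac peaks on all chromosomes. The members were chosen by the measured peak positions of both genotypes, so the shares of WT-only peaks are descriptions and no test was run on them. The WT cells were MEF whose Kap1 alleles carry loxP sites (Kap1 loxP/loxP), and the Kap1 KO cells were MEF labelled Kap1 KO. Both were embryonic and of C57BL/6 strain background (C57BL/6J in the methods of the study), and the mark was precipitated from both with the same antibody (Abcam, ab4729). Each genotype had 1 H3K27ac library, so the spread between libraries cannot be measured and genotype cannot be told apart from library or culture. The RNA-seq of the study used 1 Kap1 KO clone after long culture, with unexcised cells as WT. Whether the chromatin came from that clone is not given in the sources used here. The lists gave positions and a score for each peak but no read counts, so the depth is unknown, and acetylation too weak to pass the calling threshold would be missed.

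Acetylation of lysine 27 on histone H3 is laid down by the p300 and CBP acetyltransferases and marks active promoters and active enhancers. Promoters that carry the mark are mostly shared among cell types, whereas the distal sites that carry it differ and are often bound by AP-1, TEAD and RUNX factors in fibroblasts. KAP1, the product of Trim28, is a corepressor that KRAB zinc finger proteins bring to DNA. It recruits the methyltransferase SETDB1, which deposits H3K9me3, a mark of silent chromatin. The comparison of both genotypes asked where active chromatin differs once this corepressor is gone.

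The sequences below come from the strongest WT-only peaks of each chromosome in the mm9 assembly. They are shown because they place a distal and a promoter example of each chromosome side by side. In the distal examples the capitals mark a match to the AP-1 motif (TGANTCA, where N is any base) closest to the middle of the peak. In the promoter examples, which end at the base before the transcript start, the capitals mark CG dinucleotides, the sites of DNA methylation.
Pdpn intron, chr4:142868331-142868530, plus strand: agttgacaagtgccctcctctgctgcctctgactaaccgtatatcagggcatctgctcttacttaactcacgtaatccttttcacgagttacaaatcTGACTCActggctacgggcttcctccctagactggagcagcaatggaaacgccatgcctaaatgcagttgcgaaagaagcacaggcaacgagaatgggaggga
Hmga2 intron, chr10:119838212-119838411, plus strand: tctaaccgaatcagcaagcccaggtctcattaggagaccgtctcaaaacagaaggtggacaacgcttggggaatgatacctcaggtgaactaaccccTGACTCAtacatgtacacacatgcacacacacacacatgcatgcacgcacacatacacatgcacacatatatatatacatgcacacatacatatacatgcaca
Cdkn2b promoter, chr4:88956942-88957141, minus strand: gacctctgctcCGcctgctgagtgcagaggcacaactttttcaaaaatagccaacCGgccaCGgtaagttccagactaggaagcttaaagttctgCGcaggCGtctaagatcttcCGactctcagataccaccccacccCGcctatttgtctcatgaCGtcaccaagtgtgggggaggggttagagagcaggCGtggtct
Hddc2 promoter, chr10:31032988-31033187, plus strand: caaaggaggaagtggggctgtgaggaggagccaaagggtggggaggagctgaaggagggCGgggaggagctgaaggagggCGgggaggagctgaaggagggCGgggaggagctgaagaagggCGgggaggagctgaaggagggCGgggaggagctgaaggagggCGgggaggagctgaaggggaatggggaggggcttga
The 2 distal stretches hold 1 AP-1 match each in capitals. The Cdkn2b stretch holds 9 CG dinucleotides in 200 bp, and the Hddc2 stretch holds 6 within a short repeated unit.

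On chromosome 4, WT-only peaks were 638 of 2153 WT peaks, or 29.6% (95% exact Clopper-Pearson interval 27.7% to 31.6%, which covers counting error only, as all intervals here do). On chromosome 10, they were 690 of 2254, or 30.6% (28.7% to 32.6%). Over all chromosomes, 22.8% of the WT peaks were WT only, and over the other 18 chromosomes 21.8%. Chromosomes 10 and 4 thus had the highest shares, followed by chromosome 13 with 29.1%. The intervals of chromosomes 4 and 13 overlapped, and when a Kap1 KO peak within 1 kb was accepted as overlap, chromosome 13 ranked above chromosome 4 with 28.1% against 27.9%.

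The opposite class was scarce on the same chromosomes. Kap1 KO-only peaks were 273 of 1843 Kap1 KO peaks on chromosome 4, or 14.8%, and 314 of 1867 on chromosome 10, or 16.8%. On the other chromosomes the share ran from 17.8% on chromosome 7 to 42.6% on chromosome 18, and it was 22.8% over the genome. WT-only peaks therefore outnumbered Kap1 KO-only peaks by a ratio of 2.34 on chromosome 4 and 2.20 on chromosome 10, while the highest ratio elsewhere was 1.5 on chromosome 13. Kap1 KO cells had 14.4% fewer peaks than WT on chromosome 4 and 17.2% fewer on chromosome 10, although the lists were of near-equal length, with 36275 peaks in WT and 36436 in Kap1 KO.

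**Figure D1:**
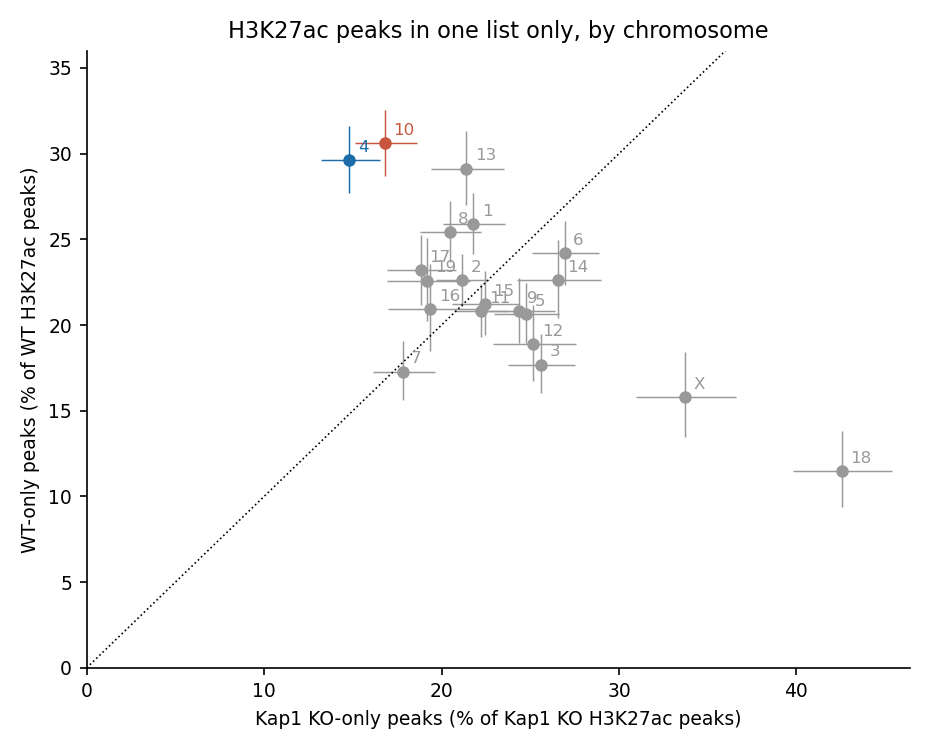
Share of Kap1 KO H3K27ac peaks that were Kap1 KO only (x axis, %) against the share of WT peaks that were WT only (y axis, %), with 1 point per chromosome and exact 95% intervals for counting error. Chromosomes 4 (blue) and 10 (red) lie at the upper left, at 29.6% and 30.6% WT only and 14.8% and 16.8% Kap1 KO only, and the dotted line marks equal shares.

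WT-only peaks were spread along the whole of chromosome 4. In its 16 bins of 10 Mb, the share ran from 20.0% to 46.4% with a median of 28.8%, and 15 bins lay above the 22.8% of the genome. All 16 bins had more WT-only than Kap1 KO-only peaks. The bin with the most was bin 14, from 130 to 140 Mb, with 97 WT-only and 25 Kap1 KO-only peaks among 313 WT peaks. The highest share, 46.4%, stood in bin 8 and rested on 13 of 28 peaks (27.5% to 66.1%). Bin 15 was the closest to balance among the peak-rich bins, with 64 WT-only and 53 Kap1 KO-only peaks, and it also held 222 WT and 16 Kap1 KO H3K9me3 peaks.

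On chromosome 10, the share in the 13 bins ran from 20.3% to 52.9% with a median of 31.6%, and 11 bins lay above the share of the genome. WT-only peaks were the more numerous class in 12 of 13 bins. The exception was bin 5, from 40 to 50 Mb, with 26 WT-only and 41 Kap1 KO-only peaks. Bin 11 had the highest share, with 45 WT-only among 85 WT peaks (52.9%, 41.8% to 63.9%) beside 1 Kap1 KO-only peak, and bin 10 had the most members, 86. On the other chromosomes, where 238 bins held at least 20 WT peaks, the median share was 21.1%, 42.0% of the bins lay above the share of the genome and 43.3% had more WT-only than Kap1 KO-only peaks.

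**Figure D2:**
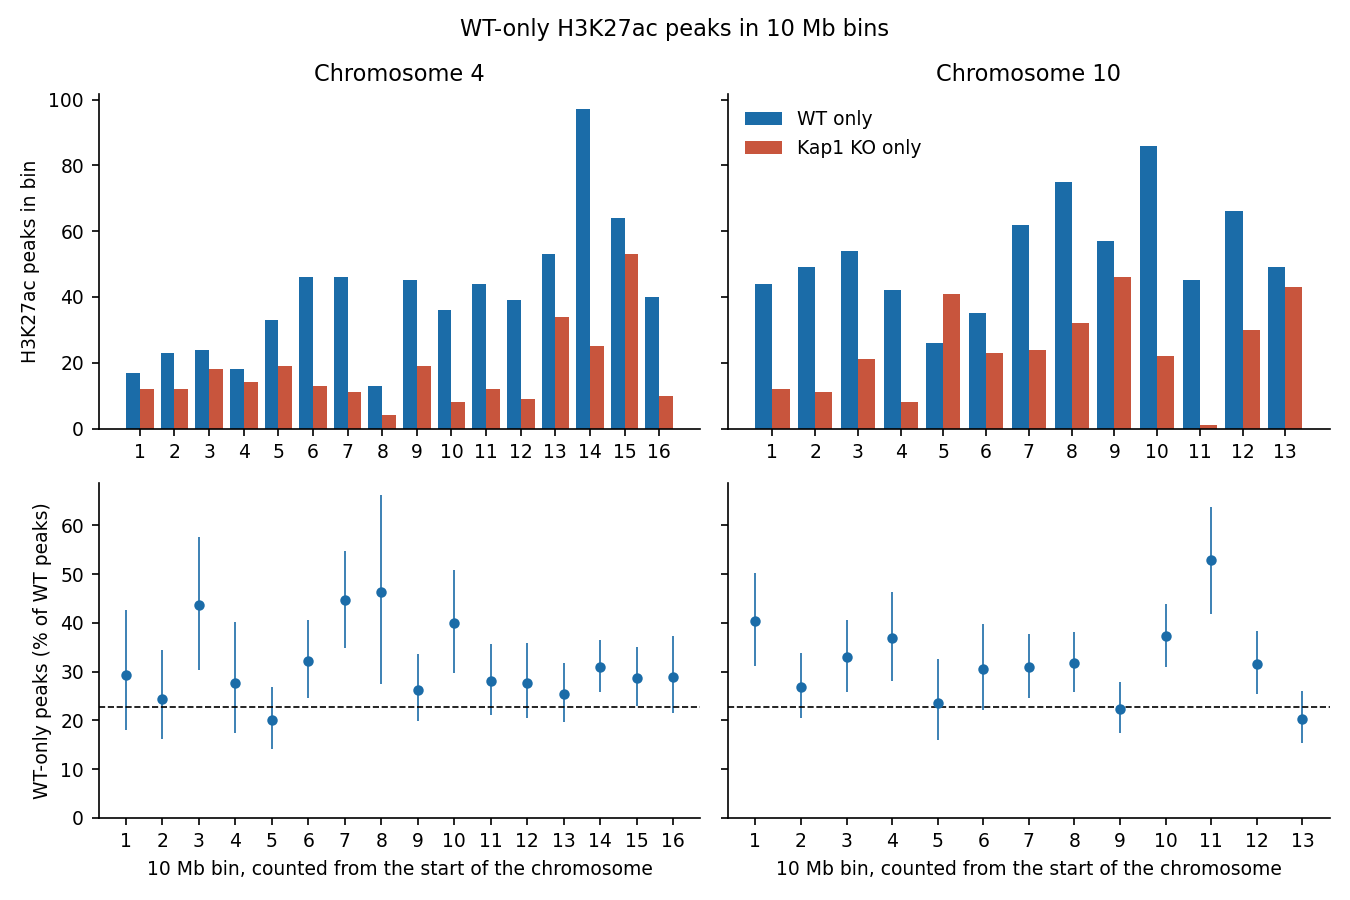
WT-only (blue) and Kap1 KO-only (red) H3K27ac peaks per 10 Mb bin of chromosomes 4 and 10 (top, number of peaks) and the WT-only share of WT peaks with exact 95% intervals (bottom, %). The dashed line is the share over all chromosomes, 22.8%, which 15 of 16 bins of chromosome 4 and 11 of 13 bins of chromosome 10 exceeded.

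Runs of at least 2 successive WT-only peaks with no Kap1 KO peak between them held 53.6% of the members on chromosome 4 and 55.4% on chromosome 10, beside 47.1% of the WT-only peaks on other chromosomes. A higher share of WT-only peaks by itself places more of them in runs, so these values are not evidence of grouping. The longest run on chromosome 4 had 7 peaks over 666 kb, from 83185023 to 83850574, and on chromosome 10 the longest runs had 9 peaks. Runs elsewhere reached 17 peaks. The densest of the runs of 9 covered 50.5 kb, from 119800594 to 119851143, across the body of Hmga2, which codes for an AT-hook chromatin protein of growing mesenchymal cells. Its peaks had widths between 1329 and 6468 bp and scores between 67.5 and 2441. The promoter of Hmga2 itself had peaks in both genotypes, with 19553 bp under peaks in WT and 24316 bp in Kap1 KO.

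WT-only peaks were mostly weak and narrow. Their score, which MACS gives as a measure of significance over input and which reached 3100 in many of the strongest peaks, had a median of 127 (quartiles 77.9 and 269). Shared WT peaks of both chromosomes had a median score of 1886. The median width was 1218 bp in WT-only and 2379 bp in shared peaks. Only 7 WT-only peaks scored 3000 or more, whereas 352, or 26.5%, scored under 80, the cutoff stated by the authors. The nearest Kap1 KO peak lay at a median distance of 14.4 kb, and 775 WT-only peaks (58.4%) were more than 10 kb away from any. WT-only peaks on the other chromosomes were much alike, with a median score of 120 and a median width of 1189 bp. Of those, 27.5% scored under 80 and 54.5% were more than 10 kb away from any Kap1 KO peak. At the edge of the rule, the closest WT-only peak lay 16 bp from a Kap1 KO peak and 8 lay within 100 bp, while the smallest overlap of a shared peak was 6 bp and 3 shared peaks overlapped by at most 100 bp.

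The excess over the other chromosomes was present among peaks of like score. Among distal WT peaks with a score between 100 and 200, 60.4% were WT only on chromosome 4 (54.1% to 66.4%) and 56.4% on chromosome 10 (50.6% to 62.1%), beside 44.6% on other chromosomes (43.0% to 46.1%). Between 200 and 400 the shares were 46.3%, 41.2% and 28.8%, and between 800 and 3000 they were 9.05%, 9.66% and 5.57%. At 3000 or more almost no distal peak was WT only, with 1 of 126 on chromosome 4, 0 of 149 on chromosome 10 and 0.856% elsewhere. The 0 of 149 allows a share of up to 2.45% (upper bound of the exact interval).

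**Figure D3:**
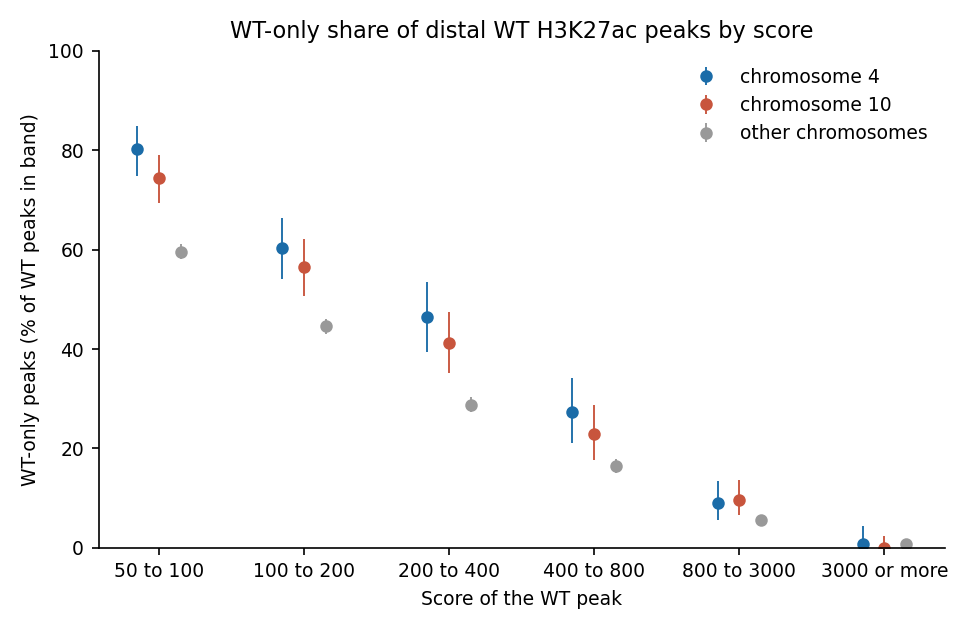
WT-only share of distal WT H3K27ac peaks (y axis, %) by the score of the WT peak (x axis, 6 bands), with exact 95% intervals for counting error. Chromosomes 4 (blue) and 10 (red) lie above the other chromosomes (grey) in each band under 3000, as at 200 to 400 with 46.3% and 41.2% against 28.8%.

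A promoter peak was one that touched 1 kb on either side of an annotated transcript start. By this definition 113 of 638 WT-only peaks of chromosome 4 were at promoters, or 17.7% (14.8% to 20.9%), and 80 of 690 on chromosome 10, or 11.6% (9.30% to 14.2%). Together this was 14.5%, beside 44.9% of the shared peaks of both chromosomes and 13.3% of the WT-only peaks elsewhere. Seen from the side of the WT peaks, 41.7% of distal and 12.6% of promoter peaks were WT only on chromosome 4. On chromosome 10 these shares were 38.8% and 11.7%, and on the other chromosomes 29.4% and 8.09%. Of the 1135 distal WT-only peaks, 483 lay in introns, 121 touched an exon and 531 lay between genes. Thus 53.2% lay in a gene, near the 50.3% of all distal WT peaks and the 54.5% of distal WT-only peaks elsewhere. For the distal class, chromosomes 4 and 10 ranked first and second, and chromosome 13 followed with 37.3%.

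The 3 distal peaks with the highest scores on each chromosome lay in introns or between genes. On chromosome 4 the first was the peak in an intron of Pdpn, the gene of the membrane glycoprotein podoplanin, at chr4:142867023-142869988 (2966 bp, score 3228). It was followed by chr4:32025527-32030201 (4675 bp, score 2602), which lay 20.9 kb from a start of Map3k7, the kinase TAK1 of TGF-beta and inflammatory signalling. The third, chr4:55733365-55736587 (score 2574), was 115 kb from the closest annotated start, of the noncoding Gm12506, but only 1404 bp from a Kap1 KO peak.
On chromosome 10 the first was chr10:119835427-119841894 in the intron of Hmga2 (6468 bp, score 2441). The second, chr10:85792509-85795598 (3090 bp, score 2310), lay in introns of the overlapping genes Syn3, a synapsin, and Timp3, an inhibitor of matrix metalloproteinases. The third, chr10:98758263-98762000 (3738 bp, score 2039), lay between genes, 32.4 kb from Dusp6, a phosphatase that dampens ERK. None of these 6 peaks was within 10 kb of a WT H3K9me3 peak. The promoters of Timp3 and Dusp6 had a peak in both genotypes, 4035 and 3956 bp wide for Timp3 and 6597 and 5820 bp wide for Dusp6 in WT and Kap1 KO.

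Among protein-coding genes, 49 of the 777 with a WT promoter peak on chromosome 4 had no Kap1 KO peak at any of their starts, or 6.31% (4.70% to 8.25%). On chromosome 10 these were 41 of 621, or 6.60% (4.78% to 8.85%). The share over the genome was 4.78%, and 4.56% on the other chromosomes. The reverse, a Kap1 KO promoter peak without one in WT, held for 17 of 745 genes (2.28%) and 7 of 587 (1.19%), beside 2.64% on the other chromosomes. The genes were spread over 14 of the 16 bins of chromosome 4 and all 13 bins of chromosome 10. For 33 and 31 of them, the nearest Kap1 KO peak lay more than 10 kb from the WT promoter peak. The median score of the promoter peaks was 305 on chromosome 4 and 368 on chromosome 10, and 20 and 14 of them scored under 200. In 4 of these genes, Tcea3, Apc2, Gm10097 and Hkdc1, the WT peak overlapped a Kap1 KO peak outside the promoter window and was thus no member of the WT-only set. Of the 193 WT-only peaks at promoters, 86 lay at a start of such a gene, 66 at a further start of a gene whose promoter mark was present in both genotypes, and 41 at noncoding starts only.

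Cdkn2b, the gene of the CDK4 and CDK6 inhibitor p15, had the widest of these promoter peaks on chromosome 4. Its start, at 88956941 on the minus strand of chromosome 4, lay under a WT peak of 4161 bp with a score of 3100, from 88953599 to 88957759, whose nearest Kap1 KO peak was 4387 bp away. Its neighbour Cdkn2a, which encodes p16 and p19ARF, had a promoter peak in both genotypes, of 4818 bp in WT and 4268 bp in Kap1 KO, both with a score of 3100. A distal peak between both genes was also shared, with 2052 bp in WT and 2393 bp in Kap1 KO. Within this locus, therefore, 1 promoter of 2 adjacent genes was without a Kap1 KO peak. Of the 30 genes in the list of growth control and stress genes on both chromosomes, 28 had a promoter peak in both genotypes, Cdkn2b in WT only and 1 in neither. That is 1 of 29 genes with a WT promoter peak (3.45%, 0.0873% to 17.8%), beside 6.44% of all such genes of both chromosomes. Map3k6, a kinase of the stress-activated MAPK cascade that was not in the list, had a WT promoter peak of 2392 bp with a score of 2381 and none in Kap1 KO.

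Transcription factors of development were represented by Runx3, Hes3, Hey2 and Myb, 4 of the 21 genes with a WT promoter peak in a list of 42 (19.0%, 5.45% to 41.9%). The share over all protein-coding genes with a WT promoter peak on these chromosomes was 6.44%, and the list was chosen with earlier results known. Runx3, a runt domain factor of T cells, neurons and cartilage, had its strongest WT-only peak at an inner start of the gene, from 134707719 to 134710785 with a score of 3100, and a weaker one of 1338 bp with a score of 173 upstream. From 60 kb before to 60 kb after the gene, 8 of the 9 WT peaks were WT only, with scores between 66.8 and 3100. The other was 5282 bp wide in WT with a score of 3100 and 2017 bp in Kap1 KO with a score of 593. Hey2, a repressor downstream of Notch, had a WT peak of 1825 bp with a score of 540, and Myb, a factor of blood progenitors, one of 3211 bp with a score of 789. The peak nearest to Hes3, a repressor of the Hes family, had a score of 220 and lay 232 bp from its start. In the same list, Rfx4 had a promoter peak of 2055 bp in Kap1 KO only, and 17 genes had one in both, among them Nfia and Klf4. Outside the list, Glis1, a Krüppel-like zinc finger factor, had a WT-only promoter peak with a score of 1668. Further into the gene lay a run of 5 WT-only peaks over 36.7 kb with scores up to 2434.

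Among signalling ligands and receptors, 5 of the 29 genes with a WT promoter peak had none in Kap1 KO (17.2%, 5.85% to 35.8%, beside the 6.44% of all such genes of both chromosomes). Among them were Ephb2, a receptor of ephrins (1806 bp, score 1506), Esr1, the oestrogen receptor (2375 bp, score 765), the ligand Wnt4 (1319 bp, score 206) and Lgr5, a receptor of R-spondins (1832 bp, score 123). A further 24 genes of the list of 41 had a promoter peak in both genotypes, and Bmp8b had one in Kap1 KO only. Nbl1, a secreted antagonist of BMPs outside the list, had a WT promoter peak of 3209 bp with a score of 3100 and none in Kap1 KO. In the list of extracellular matrix genes, Dcn, which codes for the collagen-binding proteoglycan decorin, was the only one of 19 genes with a WT promoter peak that had none in Kap1 KO (1473 bp, score 180), or 5.26% of them. Col15a1 had a promoter peak in Kap1 KO only. Around Dcn, 3 of 5 WT peaks within 60 kb were WT only, all with scores under 200.

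The remaining genes with the strongest WT-only promoters had varied functions. On chromosome 4 they were Cntln, a centrosome component (2115 bp, score 3100), B930041F14Rik (score 1573) and Gng10, a gamma subunit of G proteins (score 1529). Tcea3, a transcription elongation factor, had a WT promoter peak with a score of 3100 that met a Kap1 KO peak outside the promoter window. On chromosome 10 they were Hddc2 (2159 bp, score 3100), Tmtc2 (2851 bp, score 2276), the divergent pair 6330407J23Rik and Gm9996 under 1 peak (score 1618), the potassium channel gene Kcnc2 (score 849), and the pair Sobp and 9030612E09Rik under 1 peak (score 781). Hddc2 stood apart from other marks, with no other H3K27ac peak of either genotype within 30 kb of the gene and its nearest Kap1 KO peak at 150 kb. Apc2 and Gm10097 had WT promoter peaks with scores of 3100 and 2856 that met a Kap1 KO peak outside the window.

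The peaks that were shared on these chromosomes were also narrower in Kap1 KO than in WT. On chromosome 4, the median log2 ratio of Kap1 KO to WT width was -0.18 (95% interval of the median over loci -0.20 to -0.16), and 1183 of 1510 shared loci (78.3%) were narrower in Kap1 KO. On chromosome 10 the median was -0.14, and 1035 of 1509 loci (68.6%) were narrower. On each of the other chromosomes the median lay between -0.11, on chromosome 8, and 0.19, on chromosome 18. The score of the shared peaks under its ceiling followed the same order, with a median log2 ratio of -0.93 on chromosome 4 and -0.54 on chromosome 10, while the lowest value elsewhere was -0.46, on chromosome 13. All 16 bins of chromosome 4 had a median width ratio below 0 on the log2 scale, from -0.43 to -0.08. Shared loci within 50 kb of a WT-only peak had a lower median than those farther away, -0.21 (840 loci) against -0.15 (670 loci) on chromosome 4 and -0.19 (817) against -0.08 (692) on chromosome 10. The chromosome 10 values include its distal end, described below, and without it they were -0.23 (708) against -0.14 (553). On the other chromosomes the medians were -0.10 beside WT-only peaks and -0.01 away from them.

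**Figure D4:**
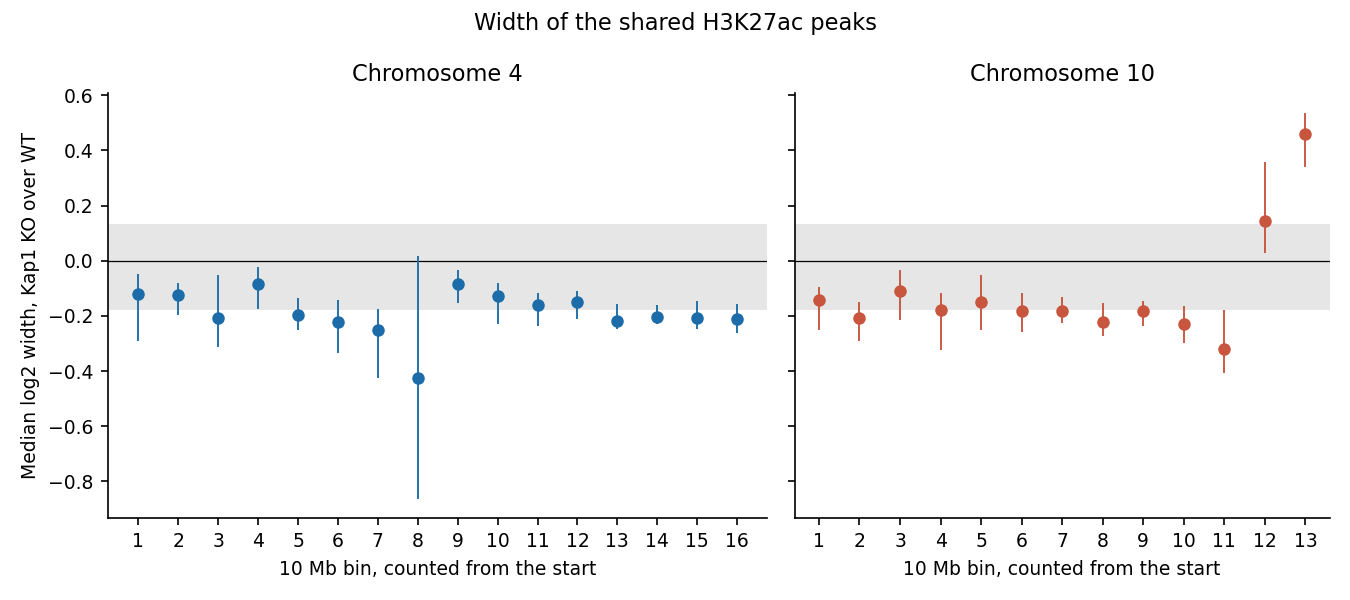
Median log2 ratio of Kap1 KO to WT width of shared H3K27ac loci (y axis) in 10 Mb bins of chromosomes 4 and 10 (x axis), with 95% intervals of the median over loci. The grey band runs from the percentile 5 to the percentile 95 of 238 bins of other chromosomes (-0.18 to 0.13), and bins 12 and 13 of chromosome 10 lie at 0.15 and 0.46, above 0.

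Chromosome 10 was not uniform in this respect. Its first 11 bins had medians between -0.32 and -0.11, whereas bins 12 and 13 stood at 0.15 and 0.46. The score did not rise with the width there. For shared peaks under the score ceiling, the median log2 ratio of Kap1 KO to WT score was -0.09 in bin 12 (75 loci) and -0.06 in bin 13 (64 loci). In windows of 2 Mb with at least 5 shared loci, 49 of the 51 windows before 114 Mb had medians below 0, and the 8 windows from there to the end had medians between 0.13 and 0.64. This boundary was set after the data had been examined. Beyond it, 207 of 248 shared loci (83.5%) were wider in Kap1 KO, with a median width ratio of 1.4. Before it, 994 of 1261 (78.8%) were narrower, with a median log2 ratio of -0.19. WT-only peaks were 89 of 377 WT peaks beyond the boundary, or 23.6% (19.4% to 28.2%), and 601 of 1877 before it, or 32.0% (29.9% to 34.2%). The share of Kap1 KO-only peaks was 22.2% beyond and 15.7% before. Taken as a whole, the distal end had a WT-only share close to the 22.8% of the genome, beside shared peaks that were wider in Kap1 KO. This share was uneven among its windows of 2 Mb. It was 5.10% (5 of 98 WT peaks) from 126 to 128 Mb and 52.6% (10 of 19) from 124 to 126 Mb.

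The H3K9me3 lists differed between both sides of the boundary as well. Before it, there were 1310 WT and 40 Kap1 KO H3K9me3 peaks on chromosome 10, and beyond it 239 WT and 1180 Kap1 KO peaks. The latter were 27.3% of the 4319 H3K9me3 peaks of the Kap1 KO list. Kap1 KO peaks were the more numerous in each 2 Mb window from 114 to 126 Mb, but not up to the end of the chromosome. From 126 to 128 Mb there were 62 WT and 59 Kap1 KO H3K9me3 peaks, and from 128 to 130 Mb 16 and 0. On chromosome 4 there were 829 in WT and 59 in Kap1 KO. Beyond the boundary, 27 of 89 WT-only H3K27ac peaks (30.3%, 21.0% to 41.0%) and 30 of 288 shared peaks (10.4%, 7.14% to 14.5%) lay within 10 kb of a Kap1 KO H3K9me3 peak. Before it, 2 of 601 WT-only and 0 of 1276 shared peaks did, which allows a share of up to 0.289% of the shared peaks. Of the 116 protein-coding genes with a WT promoter peak beyond the boundary, 2 had none in Kap1 KO (1.72%, 0.209% to 6.09%), Lgr5 and Fam19a2. Before it these were 39 of 505 (7.72%, 5.55% to 10.4%).

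Most promoter peaks of listed genes with a peak in both genotypes are among the shared loci that set the boundary. Their widths therefore describe both sides and add no support for it. Of the 12 such genes of the 4 lists beyond the boundary, 11 had wider promoter peaks in Kap1 KO, against 5 of 39 entries before it. Alx1, which was narrower in Kap1 KO, is repeated among these entries because the annotation lists it more than once. Sim1 and Col18a1, among the wider entries before the boundary, had WT promoter peaks that were WT only, so their widths compare peaks that do not overlap. Peaks at Cdk4, the kinase that p15 inhibits, covered 3635 bp in WT and 17785 bp in Kap1 KO. At Mdm2, the ubiquitin ligase of p53, they covered 8764 and 33544 bp, and at Lrp1, an endocytic receptor, 10108 and 42212 bp. Erbb3 was the exception, with 2048 and 1994 bp. Before the boundary, the promoter peaks of Col6a1, a chain of collagen VI, covered 11684 bp in WT and 2210 bp in Kap1 KO, and those of Ctgf, which went the other way, 4854 and 9504 bp.

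**Figure D5:**
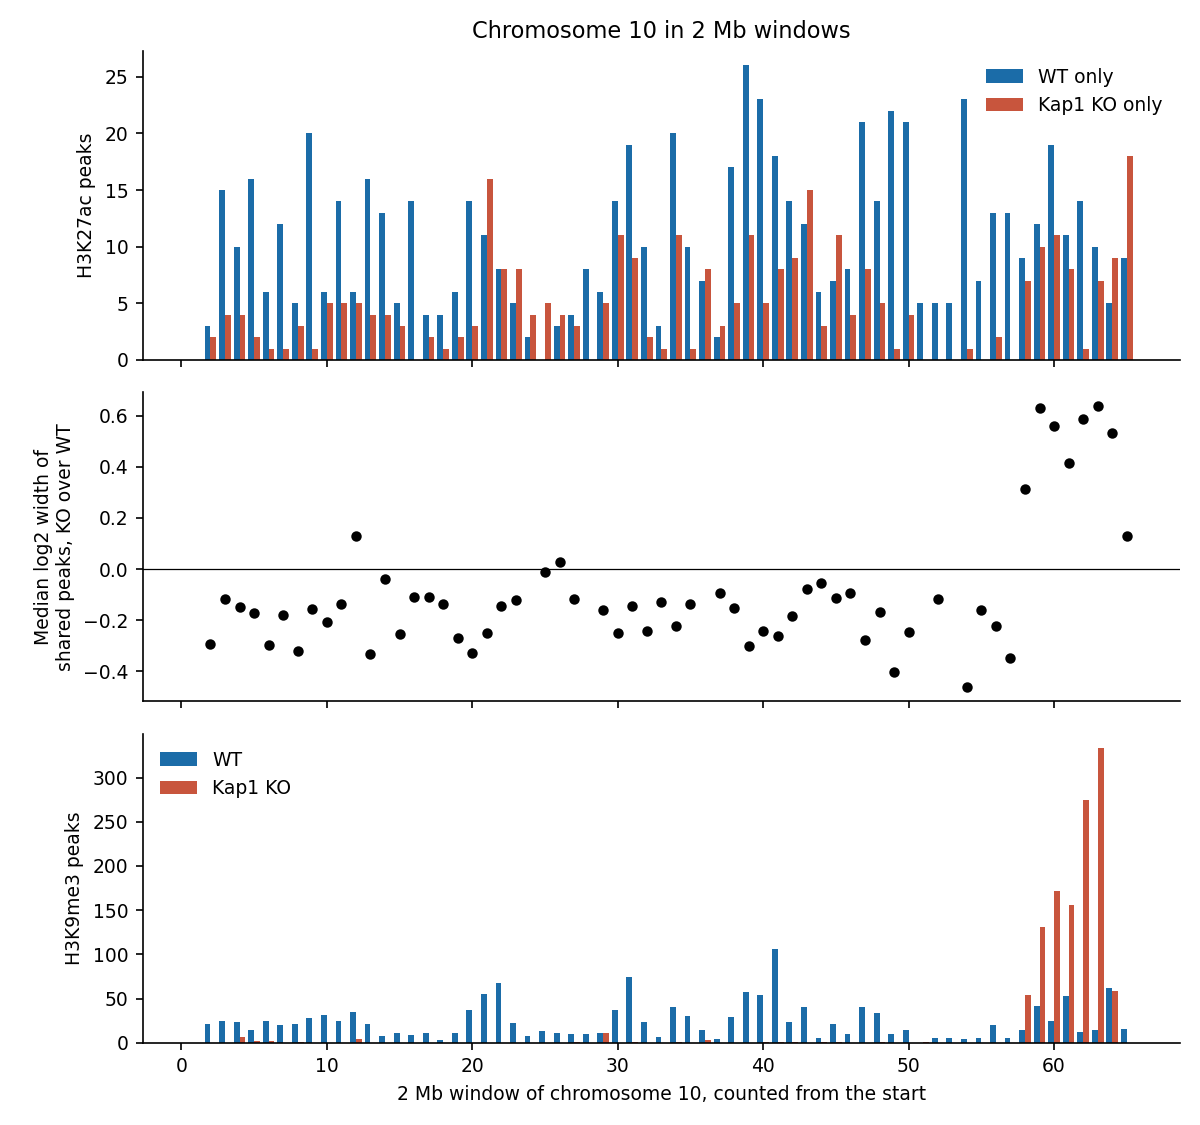
WT-only and Kap1 KO-only H3K27ac peaks (top, number), median log2 ratio of Kap1 KO to WT width of shared H3K27ac loci (middle, windows with at least 5 loci) and H3K9me3 peaks of each genotype (bottom, number) in 2 Mb windows of chromosome 10. The last 8 windows have medians between 0.13 and 0.64 and hold 1180 of the Kap1 KO H3K9me3 peaks, with 0 of them in the last window. WT-only peaks occur on both sides of the boundary at 114 Mb.

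The spread of WT-only peaks over whole chromosomes, the narrower shared peaks and the local sites without any mark nearby are given side by side, since a difference in the number of copies of a chromosome and a local loss of acetylation cannot be told apart with peak lists from 1 library per genotype. The coverage of the inputs, which bears on copy number, was not analysed here. On chromosome 4, the WT-only share was above that of the genome in 15 of 16 bins and the shared peaks were narrower in all 16. Within the same chromosome, the WT-only share differed between classes of distal peaks. It was 0.794% at scores of 3000 or more and 80.2% at scores between 50 and 100. On the other chromosomes these shares were 0.856% and 59.6%, so the rise towards weak peaks was not particular to chromosome 4. Single sites with a score of 3100 in WT, such as the promoters of Cdkn2b, Nbl1 and Runx3, had no Kap1 KO peak at all. At Cdkn2a a promoter peak was called in both genotypes, 4818 bp wide in WT and 4268 bp in Kap1 KO. Its score was 3100 in both, a value that many of the strongest peaks reached, so a difference in strength need not show in it.

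The share of WT-only peaks near WT H3K9me3 was close to that of all H3K27ac peaks. A WT H3K9me3 peak lay within 10 kb of 152 of the 1328 members, or 11.4% (9.78% to 13.3%), of 10.9% of all WT H3K27ac peaks, of 14.6% of the shared peaks of both chromosomes and of 9.05% of the WT-only peaks elsewhere. The share was 7.68% on chromosome 4 and 14.9% on chromosome 10. WT H3K9me3 peaks touched 8 members (0.602%) and 0.502% of all WT H3K27ac peaks. Kap1 KO H3K9me3 peaks touched 9 members (0.678%), all on chromosome 10, and 0.127% of all WT H3K27ac peaks. In Hepa 1.6 cells, a mouse hepatoma line and thus another cell type, KAP1 peaks lay within 10 kb of 13.9% of the members, 14.6% of the WT-only peaks elsewhere, 28.0% of the shared peaks of both chromosomes and 24.9% of all WT peaks. They touched 2.26%, 2.46%, 16.2% and 12.7% of these. Among distal peaks, 13.5% of the members and 19.1% of the shared peaks of both chromosomes had a KAP1 peak within 10 kb.

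In sequence, the WT-only promoters were poorer in CG dinucleotides than the shared promoters. In the middle 300 bp of the peaks, the median ratio of observed to expected CG was 0.42 at the 193 WT-only promoters and 0.69 at the 1384 shared ones, with a GC content of 54.7% and 60.7%. WT-only promoters on other chromosomes had 0.41 and 55.0%. The GC box of SP and KLF factors (GGGCGG) was present in 32.6% of the WT-only promoters (26.1% to 39.7%) and 46.1% of the shared ones (43.4% to 48.8%). For the AP-1 motif these shares were 14.5% (9.86% to 20.3%) and 6.72% (5.46% to 8.17%). WT-only promoters on other chromosomes held the GC box in 33.3% and the AP-1 motif in 12.3%. The RUNX motif (TGTGGT) was in 18.7% of the WT-only and 12.4% of the shared promoters. For the NFI motif (TTGGCA) these shares were 17.1% and 10.1%, and for the ETS motif (CCGGAAG) 4.66% and 8.96%. The TEAD motif (12.4% and 12.6%) and the NF-Y box (26.9% and 25.8%) differed little. Both strands were searched, and a match is not evidence of binding. At distal sites the order of the AP-1 motif was reversed, with 25.1% of the WT-only peaks (22.6% to 27.7%) and 32.1% of the shared peaks (29.9% to 34.4%). All distal WT peaks held it in 29.0% of the windows and distal WT-only peaks elsewhere in 23.2%. Counted over whole peaks, AP-1 matches were 0.66 per kb in distal WT-only and 0.69 per kb in distal shared peaks. The TEAD motif (GGAATG) was in 21.6% and 24.1% of these windows, the RUNX motif (TGTGGT) in 22.5% and 24.5%, the NF-Y box (CCAAT) in 32.4% and 32.5%, the ETS motif (CCGGAAG) in 2.38% and 2.01%, and the NFI motif (TTGGCA) in 18.0% and 15.04%.

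The labelled cell type was checked against promoter peaks of marker genes on all chromosomes. Of 14 fibroblast markers, 12 had a promoter peak in both genotypes, among them Col1a1, Pdgfrb and Vim, and 2 had none in either. None of the 4 hepatocyte markers and none of the 4 haematopoietic markers that could be matched had a peak. Of 5 epithelial markers, Krt8 had a promoter peak in WT only, and of 5 pluripotency markers Esrrb had one in Kap1 KO only. Of 5 endothelial markers, Pecam1 and Kdr had peaks in both. The part of other cell types in the WT-only peaks was not tested. The promoter of Trim28 had a peak in both genotypes, which does not check the deletion, since the place of the loxP sites was not looked at here.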

How the data were processed

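Peak lists of H3K27ac and H3K9me3 in WT and Kap1 KO MEF and of KAP1 in Hepa 1.6 cells were used, with 1 library each. The authors mapped reads to mm9 with Bowtie2 2.2.1, and their peak calls were made by MACS 1.4 relative to total input. They deposited positions and a score per peak, with no read counts, and the lists reach down to a score of 50 although a cutoff of 80 is stated. All peaks were used. The input is the same for both marks of a genotype, per the labels.

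A WT peak was WT only when it shared no base with a Kap1 KO peak. Promoters were 1 kb on both sides of transcript starts of GENCODE M1, which uses the mm9 coordinates. Shared loci were groups of overlapping peaks, with widths summed per genotype. Motifs were counted in the middle 300 bp. No test was run between genotypes. Shares carry exact Clopper-Pearson 95% intervals, and medians an interval from binomial order statistics. The intervals cover counting over peaks or loci within these libraries only. Depth is unknown.

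The peak set and the gene lists were chosen with earlier results of these data known. Named genes were, among those without a Kap1 KO promoter peak, all genes of the lists and, on each chromosome, the 10 with the highest score of the WT peak, except for a list gene that is not reported here. The distal peaks described were the 3 with the highest score on each chromosome. Genes described for comparison (Cdkn2a, Timp3, Dusp6, Hmga2, Mdm2, Cdk4, Lrp1, Erbb3, Col6a1 and Ctgf), the loci around Runx3 and Dcn, and Fam19a2 were chosen after their values were seen, as was the boundary on chromosome 10, which is the start of the last unbroken stretch of 2 Mb windows with a median log2 width ratio above 0. The alternatives changed the score minimum, the overlap rule, the promoter width or the pairs used for widths.

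Python 3.11.15, pandas 2.3.3, numpy 2.4.6 and scipy 1.17.1 were used, with matplotlib 3.10.9 for plots. The overlap step was tested on simulated data, where all 500 peaks placed without a partner among 2000 were found, and its 8269 WT-only peaks were the same number as with bedtools 2.31.1. The RNA-seq, input, SETDB1, ES cell and liver data were not analysed here.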

Additional observations from a re-analysis of the deposited data

How the results depend on the processing

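Of the 9 results on shares, gene counts and widths, only the median log2 width ratios could change sign. They stayed negative under the alternatives run. The order of chromosomes did change when a Kap1 KO peak within 1 kb counted as overlap, with chromosome 4 at 27.9% behind chromosome 13 at 28.1%. With the 50% of peaks that have the highest score in each list, WT-only peaks were 21.3% of the WT peaks on chromosome 4 and 21.0% on chromosome 10, beside 14.0% on the other chromosomes, and both stayed the highest 2 of 20 chromosomes. Their promoter share was 33.8% and 18.5%, the median log2 width ratio on chromosome 4 was -0.16, and 13.8% of the members lay within 10 kb of a WT H3K9me3 peak. With promoters of 2.5 kb on both sides, the promoter share was 26.2% on chromosome 4 and 15.9% on chromosome 10. Without the distal end of chromosome 10, an alternative chosen after seeing the data, the median log2 width ratio of that chromosome was -0.19 instead of -0.14. The other 36 values stayed within the interval of the reported value or within 1.5 times of the reported count, among them all gene counts, and those with a score of at least 80, an overlap of 50% of the shorter peak, or a Kap1 KO peak within 1 kb counted as overlap. No paired analysis was possible because each MEF genotype had 1 H3K27ac library, and for the same reason no replicate could be left out. Depth and signal under the calling threshold are unknown here, so a WT-only peak is a difference in calls and not a measured loss of acetylation.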

Other observations

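Beside the run over Hmga2, 3 further runs of 9 WT-only peaks lay on chromosome 10. The first spanned 726 kb from 8670218 to 9395761, between Sash1, which codes for a signalling scaffold, and Samd5, and its last peak was at a start of Samd5 with a score of 672. The second spanned 447 kb from 83302726 to 83749572, at lower coordinates than Nuak1, a kinase related to AMPK. Its strongest peak had a score of 732. The third spanned 1262 kb from 123285399 to 124546975 in the distal end of the chromosome. The start nearest to its last peak was that of the transporter gene Slc16a7. On chromosome 4, a run of 6 began at the promoter of Cntln and spanned 1158 kb. A compact run of 5 covered 23.0 kb at Luzp1, with scores between 94.9 and 577.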
